A study of Arabidopsis thaliana with 9 samples.

Results

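The 10 genes described here carry or control iron uptake in Arabidopsis thaliana or mark its iron status, and were picked by gene identifier from the 33602 genes in each file. They are the uptake genes IRT1 (AT4G19690) and FRO2 (AT1G01580), and the regulators FIT (AT2G28160), BHLH38 (AT3G56970), BHLH39 (AT3G56980), BHLH100 (AT2G41240) and PYE (AT3G47640). BTS (AT3G18290) encodes a ubiquitin ligase, OPT3 (AT4G16370) a transporter and FER1 (AT5G01600) a ferritin. RNA sequencing was done on whole seedlings 9 days old, grown on half-strength MS medium with 2% sucrose, in 3 groups of 3 libraries. Plants of tt19-8 lack TT19 by knock-out, a glutathione S-transferase needed for anthocyanin to accumulate. The groups OE1 and OE2 are labelled as overexpressing CsGSTF1, a glutathione S-transferase of tea, and the series title names rescue of the tt19-8 mutant as the aim. The sample labels give neither the background genotype of the overexpressing groups, nor the promoter, nor whether libraries of a group came from separate cultures, and p-values reflect the spread among these libraries, which may be technical. No group is a wild type or an iron treatment, and iron itself was not analysed here.

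Arabidopsis roots reduce ferric iron at the epidermis with the reductase FRO2 and import the ferrous form with the transporter IRT1. Both genes are switched on by the bHLH factor FIT together with one of the subgroup Ib factors, BHLH38, BHLH39, BHLH100 or BHLH101, and these rise when iron is short. PYE is a further bHLH regulator of the iron deficiency response, BTS marks upstream bHLH factors for degradation, and OPT3 loads iron into the phloem and takes part in signalling from shoot to root. FER1 stores iron in plastids and rises with iron supply. Under low iron, IRT1, FRO2, the subgroup Ib genes, OPT3, BTS and PYE are known to rise and FER1 to fall.

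Transcript levels are in FPKM, which counts fragments against both gene length and library size, as the authors deposited them. Low values in OE1 and tt19-8 lie on steps that place the totals at 48.6 M to 57.4 M fragments (M, counts of 1e6), whereas OE2 values show no steps and their depth is unknown. TT19 (AT5G17220), the gene knocked out in tt19-8, measured 0 to 0.113 FPKM in tt19-8, 0 to 0.0769 FPKM in OE1 and 0.674 to 0.876 FPKM in OE2. The OE2 libraries are tied to the OE1 libraries of the same number. Their deviations from the group mean correlated at 0.95, 0.96 and 0.96 across genes, against -0.59 to -0.29 between different numbers. Of the 21905, 22005 and 22196 genes above 0 in OE1 replicates 1, 2 and 3, none was at 0 in the OE2 library of that number, and the lowest OE2 to OE1 ratios were 0.6002, 0.6005 and 0.6007. The fit over all 9 libraries takes no account of this tie and counts OE1 and OE2 libraries as independent in its estimate of the spread. In tt19-8, replicate 3 stood apart: over the 3175 genes with a mean of at least 50 FPKM, the SD of its log2 ratio to replicates 1 and 2 was 0.545 and 0.603, against 0.3 between those replicates and 0.298 to 0.369 to the OE1 libraries. The comparisons of the members with tt19-8 are given with and without that library, and those of other named genes as the range of their adjusted p without it.

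The uptake gene IRT1 and the subgroup Ib factors were at or near 0 in all 3 groups. IRT1 (chromosome 4, 10707344 to 10709015, forward strand, TAIR10.1) was listed at 0 FPKM in all 9 libraries. The same held for 8185 of all 33602 genes. At the depth of OE1 and tt19-8, 3 fragments of IRT1 correspond to 0.0334 to 0.0395 FPKM. This is taken as an approximate upper limit for a count of 0 there, not a strict one, and covers counting error only. Its upstream neighbour IRT2, a related transporter that lies 2505 bases away, measured 2.23 to 4.42 FPKM across the 9 libraries.

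BHLH38 (chromosome 3, 21084035 to 21085245, reverse strand) and BHLH39 (21086390 to 21087710, reverse strand) lie in tandem, 1144 bases apart. BHLH38 was listed at 0 FPKM in all libraries of OE1 and tt19-8, and at 0.0733, 0 and 0.0774 FPKM in OE2 replicates 1, 2 and 3. BHLH39 was listed at 0, 0 and 0.0354 FPKM in OE1, at 0.0273, 0.127 and 0.196 FPKM in OE2, and at 0 in tt19-8. BHLH100 (chromosome 2, 17198037 to 17199454, reverse strand) was listed at 0 FPKM in OE1, at 0.0789, 0 and 0.0749 FPKM in OE2, and at 0.0431, 0 and 0 FPKM in tt19-8. For these 3 factors, 3 fragments at the depths of OE1 and tt19-8 correspond to 0.043 to 0.0571 FPKM, so no value in those groups exceeded the level of 3 fragments. Values above that level occurred in OE2 alone, whose depth is unknown. Fewer genes of any kind were listed at 0 in OE2 than in OE1 or tt19-8. How reads shared by related factors were counted is not given in the sources used here. The fourth subgroup Ib gene, BHLH101, was listed at 0 FPKM in OE1 and tt19-8 and reached 0.00611 FPKM in OE2.

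FRO2 (chromosome 1, 208995 to 213082, forward strand) was detected in every library at a low level. It measured 0.777, 0.691 and 0.689 FPKM in OE1 replicates 1, 2 and 3, 0.639, 0.624 and 0.617 FPKM in OE2, and 0.675, 0.11 and 1.12 FPKM in tt19-8. The tt19-8 libraries spanned the values of both other groups. These 5 members, IRT1, FRO2, BHLH38, BHLH39 and BHLH100, did not reach 1 FPKM in 3 libraries and were not tested. The other 5 members were tested, so the counts of called members below are counts among those 5 and not among all 10.

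**Figure D1:**
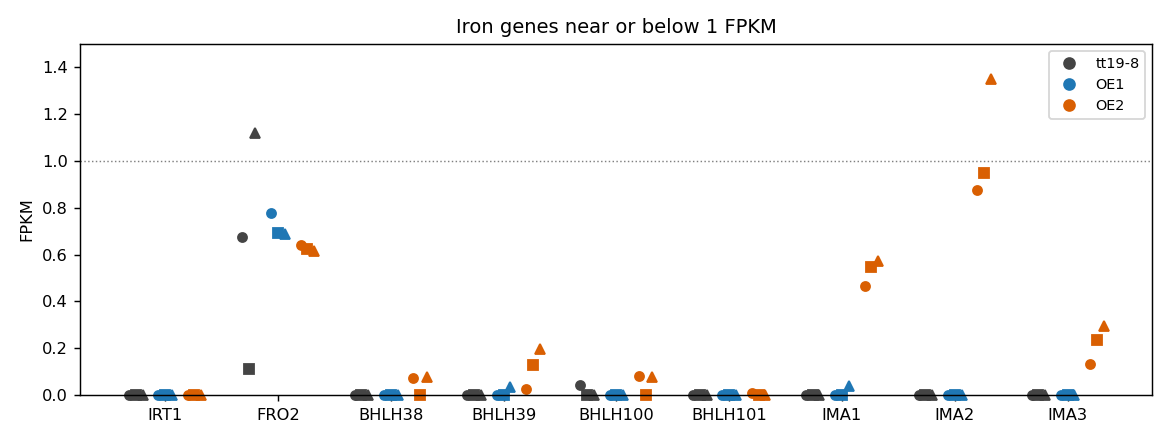
FPKM (vertical axis) of the 5 low members, BHLH101 and the peptide genes IMA1 to IMA3 in each of the 9 libraries, coloured by group, with circles, squares and triangles for replicates 1, 2 and 3 and a dotted line at 1 FPKM. FRO2 lies between 0.11 and 1.12 FPKM, IRT1 is listed at 0 throughout, and the subgroup Ib factors stay at or below 0.196 FPKM.

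The 5 tested members kept 1 order in all 9 libraries, FER1 above OPT3, OPT3 above BTS, BTS above FIT and FIT above PYE, on the per-length FPKM scale. Group means of FER1 were 364 to 736 FPKM, those of OPT3 49.9 to 84.7 FPKM and those of BTS 28.9 to 44.8 FPKM. FIT averaged 8.99 to 11.7 FPKM and PYE 2.61 to 3.4 FPKM. Between libraries the ranges of OPT3 (47.8 to 98.6 FPKM) and BTS (27.3 to 55.1 FPKM) overlapped, and those of the other neighbours in this order did not.

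The 250 bases before the annotated starts of members that differ in level are printed from the RefSeq TAIR10.1 genome, 5′ to 3′ on the gene's strand, because 4 of the 10 members share a motif there. Capitals mark CACGTG, the G-box, a palindrome that reads the same on both strands and is bound by bHLH and bZIP factors. The windows are chr4:9250344-9250593 (reverse strand) for OPT3, chr3:6273716-6273965 (forward) for BTS, chr3:21085246-21085495 (reverse) for BHLH38, chr2:17199455-17199704 (reverse) for BHLH100 and chr5:230052-230301 (reverse) for FER1, shown as the strongest member without the motif.
OPT3: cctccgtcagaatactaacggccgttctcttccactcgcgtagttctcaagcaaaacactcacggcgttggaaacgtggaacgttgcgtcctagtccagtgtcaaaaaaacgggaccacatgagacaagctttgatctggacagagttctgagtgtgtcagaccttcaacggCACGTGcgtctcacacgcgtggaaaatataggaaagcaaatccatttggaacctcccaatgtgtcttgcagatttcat
BTS: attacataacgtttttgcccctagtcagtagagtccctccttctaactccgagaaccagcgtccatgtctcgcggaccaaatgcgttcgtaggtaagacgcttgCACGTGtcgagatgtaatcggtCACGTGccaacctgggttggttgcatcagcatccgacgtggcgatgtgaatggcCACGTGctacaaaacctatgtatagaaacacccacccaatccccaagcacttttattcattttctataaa
BHLH38: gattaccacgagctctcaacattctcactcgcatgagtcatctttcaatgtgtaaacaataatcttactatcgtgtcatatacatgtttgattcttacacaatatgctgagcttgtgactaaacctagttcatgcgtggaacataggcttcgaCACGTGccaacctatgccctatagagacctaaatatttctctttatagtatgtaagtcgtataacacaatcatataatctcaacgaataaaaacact
BHLH100: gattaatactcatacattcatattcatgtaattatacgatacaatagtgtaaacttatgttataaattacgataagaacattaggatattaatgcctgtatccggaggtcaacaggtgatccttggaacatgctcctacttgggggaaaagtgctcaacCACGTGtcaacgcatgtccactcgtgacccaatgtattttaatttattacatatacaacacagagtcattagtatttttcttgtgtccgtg
FER1: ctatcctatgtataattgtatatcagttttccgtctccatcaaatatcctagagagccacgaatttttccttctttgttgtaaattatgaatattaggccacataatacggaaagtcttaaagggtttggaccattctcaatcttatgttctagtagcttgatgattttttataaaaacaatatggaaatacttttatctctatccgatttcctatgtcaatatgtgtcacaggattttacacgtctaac

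CACGTG begins 78 bases before the start of OPT3, 97 before BHLH38 and 91 before BHLH100, and occurs in BTS at 146, 124 and 70 bases before the start. Among the windows of all 32834 genes searched, 1914 (5.83%) hold it, and 27 (0.0822%) hold it 3 or more times. It is not among the letters of the windows of FER1, BHLH39, IRT1, FRO2, FIT and PYE. Among 51 other iron genes, 6 windows hold it. Members with the motif include OPT3 and BTS, at 27.3 FPKM or more, and BHLH38 and BHLH100, near 0. A match describes the letters only.

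FIT, the factor on which root iron uptake depends, was expressed in every library and passed the test in none of the 3 comparisons over all 9 libraries. FIT (chromosome 2, 12004658 to 12006276, forward strand) measured 10.1, 15.0 and 10.1 FPKM in OE1, 9.75, 14.5 and 9.67 FPKM in OE2, and 7.93, 8.03 and 11.0 FPKM in tt19-8. Replicate 2 was highest in both overexpressing groups, whose same-numbered libraries are tied, and replicate 3 in tt19-8, and the groups overlapped. The limma log2 difference to tt19-8 was 0.34 ± 0.22 (SE) in OE1 (adjusted p = 0.397) and 0.29 ± 0.22 in OE2 (adjusted p = 0.36). Without tt19-8 replicate 3 these were 0.48 (adjusted p = 0.174) and 0.43 (adjusted p = 0.179). A fit of OE1 and OE2 alone, blocked on replicate number and added after the data were seen, called FIT lower in OE2 (log2 -0.05, adjusted p = 0.0057). FIT thus measured 7.93 to 15.0 FPKM across libraries in which its target IRT1 was listed at 0.

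PYE (chromosome 3, 17567126 to 17569394, forward strand) was the lowest tested member. It measured 3.31, 3.2 and 3.67 FPKM in OE1, 3.24, 3.11 and 3.56 FPKM in OE2, and 1.67, 2.6 and 3.55 FPKM in tt19-8. Replicates 1 and 2 of tt19-8 were below every library of the other groups, and replicate 3 lay among them. The log2 difference was 0.32 ± 0.2 (SE) in OE1 (limma adjusted p = 0.388) and 0.29 ± 0.2 in OE2 (adjusted p = 0.324). It did not pass the test without tt19-8 replicate 3 either, at 0.50 in OE1 (adjusted p = 0.0744) and 0.47 in OE2 (adjusted p = 0.0628).

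OPT3, the phloem iron transporter, was lower in both overexpressing groups than in tt19-8, and passed the test in OE2. OPT3 (chromosome 4, 9247302 to 9250343, reverse strand) measured 53.7, 50.3 and 53.9 FPKM in OE1, 50.7, 47.8 and 51.2 FPKM in OE2, and 98.6, 92.4 and 62.9 FPKM in tt19-8. Every library of OE1 and OE2 lay below every tt19-8 library, and tt19-8 replicate 3 lay nearest to them. The OE2 values were 0.944 to 0.95 times those of the tied OE1 libraries, so the groups are not independent here. Mean levels were 52.6 ± 2.02, 49.9 ± 1.85 and 84.7 ± 19.1 FPKM (SD, n = 3 each), or 0.622 times tt19-8 in OE1 and 0.589 times in OE2. The log2 difference was -0.73 ± 0.17 (SE) in OE2 (limma adjusted p = 0.0205) and -0.65 ± 0.17 in OE1 (adjusted p = 0.178). Before adjustment, the limma p was 0.00165 in OE2 and 0.00341 in OE1. The adjustment depends on all tested genes of a comparison. A call in OE2 alone therefore does not by itself show a difference from OE1.

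BTS, the ubiquitin ligase, was lowest in OE2. BTS (chromosome 3, 6273966 to 6280562, forward strand) measured 34.0, 37.9 and 37.3 FPKM in OE1, 27.3, 29.6 and 29.6 FPKM in OE2, and 46.2, 55.1 and 33.1 FPKM in tt19-8. All OE2 libraries lay below all tt19-8 libraries, while OE1 overlapped tt19-8 through replicate 3 of tt19-8. In OE2 it fell to 0.644 times the tt19-8 mean, 28.9 ± 1.32 against 44.8 ± 11.0 FPKM (SD, n = 3), with a log2 difference of -0.59 ± 0.18 (SE, limma adjusted p = 0.0442). With only OE2 and tt19-8 libraries in the fit, BTS was not called (adjusted p = 0.0691), while OPT3 was (adjusted p = 0.0368). In OE1 the log2 difference was -0.26 ± 0.18 (adjusted p = 0.417).

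FER1, the ferritin, had the highest level of the members, and among the 5 tested members the widest range between libraries on the FPKM scale. FER1 (chromosome 5, 227953 to 230051, reverse strand) measured 342, 409 and 602 FPKM in OE1, 280, 332 and 480 FPKM in OE2, and 782, 1032 and 394 FPKM in tt19-8. Replicate 3 was highest in OE1 and in OE2, whose libraries are tied to those of OE1. In tt19-8 replicate 3 was lowest, and lay below OE1 replicates 2 and 3. The log2 difference to tt19-8 was -0.64 ± 0.35 (SE) in OE1 (limma adjusted p = 0.336) and -0.94 ± 0.35 in OE2 (adjusted p = 0.0847), and neither passed the test. FER1 was the highest of the 4 ferritin genes in all 9 libraries. FER3 averaged 200 ± 53.0, 165 ± 41.6 and 200 ± 57.7 FPKM in OE1, OE2 and tt19-8 (SD, n = 3), and FER2 measured 41.0, 41.6 and 13.9 FPKM in tt19-8, where replicate 3 was again the lowest.

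**Figure D2:**
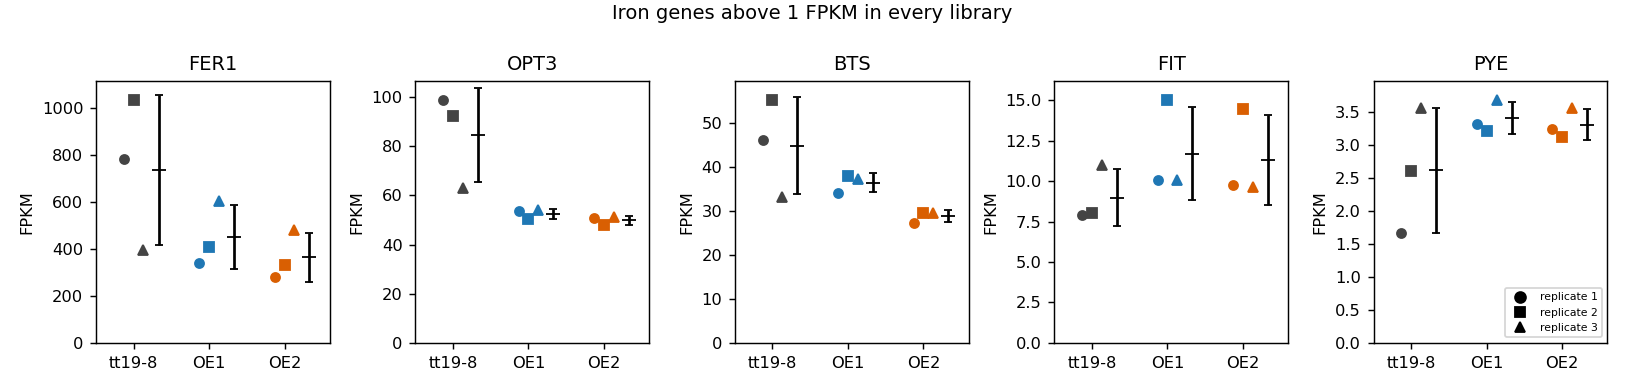
FPKM (vertical axes, separate scales from 0) of FIT, PYE, BTS, OPT3 and FER1 in each library, with circles, squares and triangles for replicates 1, 2 and 3 and bars for mean and SD. The OPT3 points of OE1 and OE2, 47.8 to 53.9 FPKM, lie below all tt19-8 points, and tt19-8 replicate 3 is the lowest tt19-8 point of OPT3, BTS and FER1.

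The members' calls are set here against those of all tested genes. Of the 5 tested members, 2 were lower and none higher in OE2 than in tt19-8, while 19.0% of all 18232 tested genes were called, 14.5% lower and 4.5% higher. Groups did not overlap, with the overexpressing libraries lower, for OPT3 and BTS in OE2, against 27.7% of all tested genes, and for OPT3 in OE1, against 13.3%. In OE1, no member was called, and 0.0165% of all tested genes, or 3 of 18232, were. The median log2 difference of the tested members was -0.26 in OE1 and -0.59 in OE2, beside -0.11 and -0.18 over all tested genes.

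The comparison with OE1 turned on tt19-8 replicate 3. Without it, OPT3, FER1 and BTS all passed the test as lower in OE1, at -0.85 (limma adjusted p = 0.00604), -1.03 (adjusted p = 0.0477) and -0.46 (adjusted p = 0.0376), and 12.9% of all tested genes were lower. In OE2 the same 3 genes passed, OPT3 at -0.92 (adjusted p = 0.00118), BTS at -0.79 (adjusted p = 0.00299) and FER1 at -1.34 (adjusted p = 0.0113), beside 25.1% of all genes. With the OE2 libraries also left out, a setting added after the data were seen, OPT3 (-0.85, adjusted p = 0.0178) and FER1 (-1.03, adjusted p = 0.0349) were lower in OE1, BTS was not called (adjusted p = 0.0999), and 7.22% of all tested genes were lower. Leaving out tt19-8 replicate 1 or 2 instead ended the calls of OPT3 in OE2 (adjusted p = 0.0725 and 0.0759) and of BTS (adjusted p = 0.122 and 0.142).

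Scaling between libraries also bore on the calls. The deposited totals were lower in OE2, 867529 to 912535 FPKM, than in OE1, 1032370 to 1079857 FPKM, and tt19-8, 1056688 to 1096075 FPKM. After median-ratio scaling, which brings the median of all genes close to 0, no member was called in OE2: OPT3 was at -0.48 (limma adjusted p = 0.0645), BTS at -0.35 (adjusted p = 0.156) and FER1 at -0.70 (adjusted p = 0.174), and 4.37% of all genes were lower and 7.52% higher. With both the scaling and tt19-8 replicate 3 left out, a combination added after the data were seen, 4 members were called in OE2, among 26.3% of all genes: OPT3 (-0.64, adjusted p = 0.00615), BTS (-0.51, adjusted p = 0.0165) and FER1 (-1.05, adjusted p = 0.0238) lower, and PYE (0.68, adjusted p = 0.0114) higher. In OE1 the same setting called OPT3 (-0.68, adjusted p = 0.0118) lower and PYE (0.62, adjusted p = 0.0278) higher, among 13.9% of all genes. OPT3 was lower than tt19-8 in both groups under each of these settings, with or without a call. The settings reuse the same libraries, and OE2 libraries are tied to OE1 libraries of the same number, so these are not independent observations.

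**Figure D3:**
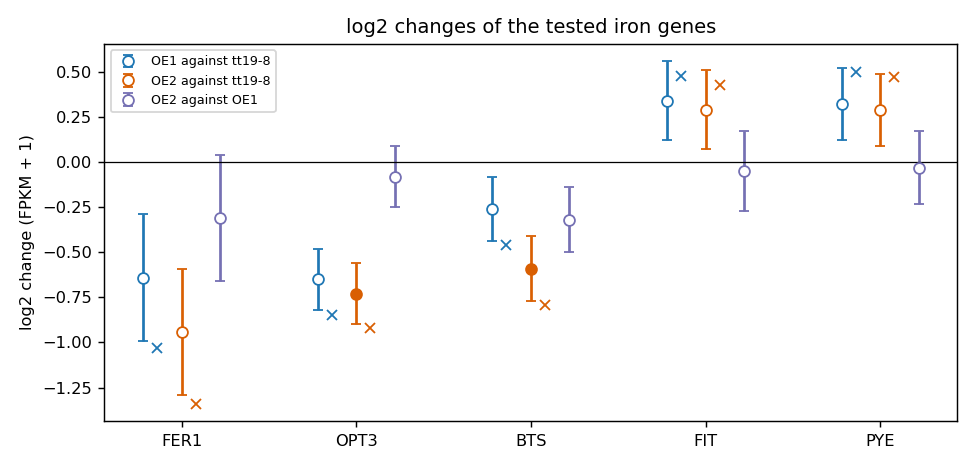
Log2 difference (vertical axis, limma on log2(FPKM + 1), error bars SE) of the 5 tested members for OE1 against tt19-8, OE2 against tt19-8 and OE2 against OE1, filled where the adjusted p is under 0.05, with crosses for the comparisons with tt19-8 fitted without its replicate 3. OPT3 and BTS in OE2 are the filled points, at -0.73 and -0.59, and each cross lies farther from 0 than the point of the same colour beside it.

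No member passed the test between OE2 and OE1, where 1.43% of all genes did. The log2 differences were -0.32 ± 0.18 for BTS (SE, limma adjusted p = 0.561), -0.31 ± 0.35 for FER1 (adjusted p = 0.957), -0.08 ± 0.17 for OPT3 (adjusted p = 1), -0.05 ± 0.22 for FIT and -0.03 ± 0.2 for PYE. Members nevertheless kept nearly fixed ratios between libraries of the same number. The OE2 to OE1 ratio was 0.963 to 0.965 for FIT, 0.944 to 0.95 for OPT3, 0.97 to 0.977 for PYE, 0.783 to 0.805 for BTS and 0.798 to 0.819 for FER1. Between libraries of different numbers, the ratio ranged from 0.643 to 1.44 for FIT and from 0.465 to 1.41 for FER1. A fit of OE1 and OE2 alone with the replicate number as a block, added after the data were seen, called BTS, FER1, OPT3 and FIT lower in OE2, with adjusted p from 0.00068 to 0.0057, and also 67.8% of all genes. What ties the libraries was not tested.

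**Figure D4:**
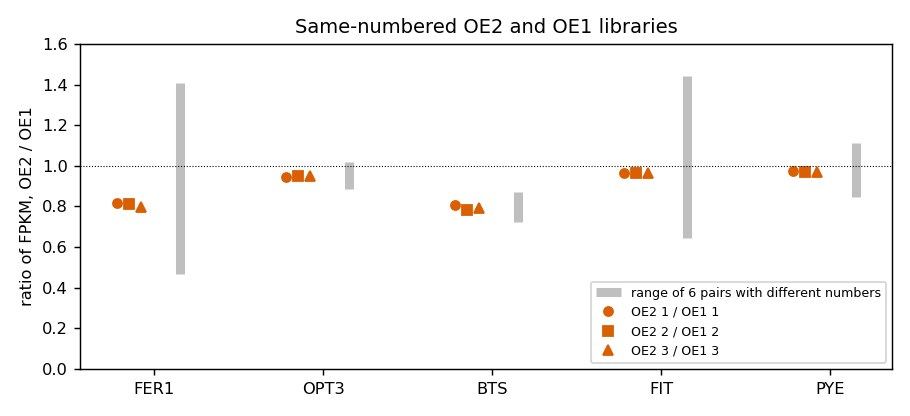
Ratio of OE2 to OE1 FPKM for the 5 tested members, with circles, squares and triangles for libraries of the same number 1, 2 and 3 and grey bars for the range over the 6 pairs of different numbers, and a dotted line at a ratio of 1. The same-number ratios of FIT span 0.963 to 0.965, within a grey bar from 0.643 to 1.44.

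Among 51 further iron genes in 4 lists, 36 were tested, and 2 were higher and 5 lower in OE2 than in tt19-8, with a median log2 difference of -0.21 beside -0.18 for all genes. This share of called genes is near the 19.0% of all tested genes. In OE1 none was called. The 17 other regulators and peptides had 8 tested and 1 called: BTSL1, a ligase related to BTS that acts in roots, averaged 2.23 ± 0.283 FPKM in OE2 against 4.38 ± 0.931 FPKM in tt19-8 (SD, n = 3; log2 -0.73, limma adjusted p = 0.0246). ILR3 and URI, upstream bHLH factors, averaged 136 ± 22.1 and 95.8 ± 9.42 FPKM in OE2, against 175 ± 39.9 and 110 ± 11.9 FPKM in tt19-8 (SD, n = 3), and did not pass the test. Of the 9 other uptake and coumarin genes 6 were tested, and ABCG37, an exporter of coumarins that mobilise iron, was lower in OE2 at 66.3 ± 7.59 against 112 ± 18.9 FPKM (log2 -0.74, adjusted p = 0.0184). AHA2, the proton pump that acidifies the soil around the root, averaged 1066 ± 106 FPKM in OE2 and 1511 ± 292 FPKM in tt19-8 and was not called. MYB72 and CYP82C4, both known to be induced by iron deficiency in roots, were listed at 0 in all 9 libraries. So were BHLH18 and BHLH19, among 8185 such genes of 33602. In the same lists, F6'H1 measured 13.6 to 28.1 FPKM, NRAMP1 26.6 to 45.3 FPKM and MYB10 0.349 to 0.758 FPKM across the 9 libraries.

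Of 18 iron transport and nicotianamine genes, 16 were tested, and 2 were higher and 3 lower in OE2, beside 4.5% higher and 14.5% lower over all genes. The 16 had a median log2 difference of -0.12, near the -0.18 of all genes. NRAMP4, which releases iron from the vacuole, measured 9.22, 9.23 and 9.16 FPKM in OE2 and 4.76, 5.23 and 3.13 FPKM in tt19-8 (log2 0.95 ± 0.19, limma adjusted p = 0.0116). NAS2, a nicotianamine synthase, measured 25.4, 29.6 and 37.1 FPKM in OE2 and 25.6, 29.8 and 37.6 FPKM in OE1. The tt19-8 mean was 15.6 ± 8.61 FPKM (SD, n = 3). The log2 difference was 1.03 ± 0.31 in OE2 (limma adjusted p = 0.0411) and 1.05 ± 0.31 in OE1 (adjusted p = 0.178). Before adjustment, the limma p was 0.00666 in OE2 and 0.0062 in OE1. Replicate 3 of tt19-8, at 25.5 FPKM, lay within the OE2 range. The called falls in OE2 were FRD3, the citrate exporter that loads iron into the xylem (-0.76 ± 0.16, adjusted p = 0.0127), IREG1, also called ferroportin (-0.99 ± 0.23, adjusted p = 0.0188), and NAS3 (-0.73 ± 0.2, adjusted p = 0.0336). In OE1, with none called, FRD3 was at -0.34, IREG1 at -0.78, NAS3 at -0.59 and NRAMP4 at -0.15. None of the 6 tested of 7 storage genes was called. After median-ratio scaling NRAMP4, NAS2 and FRD3 were still called in OE2, and BTSL1, ABCG37, IREG1 and NAS3 were not. Without tt19-8 replicate 3 these 7 genes all passed in OE2, with adjusted p from 0.00223 to 0.0416. The called genes then numbered 3 regulators, 4 uptake, 7 transport and 1 storage in OE2, and 0, 2, 3 and 1 in OE1. Over all 18128 genes tested without tt19-8 replicate 3, 3128 were called in OE1 and 4548 were lower in OE2.

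**Figure D5:**
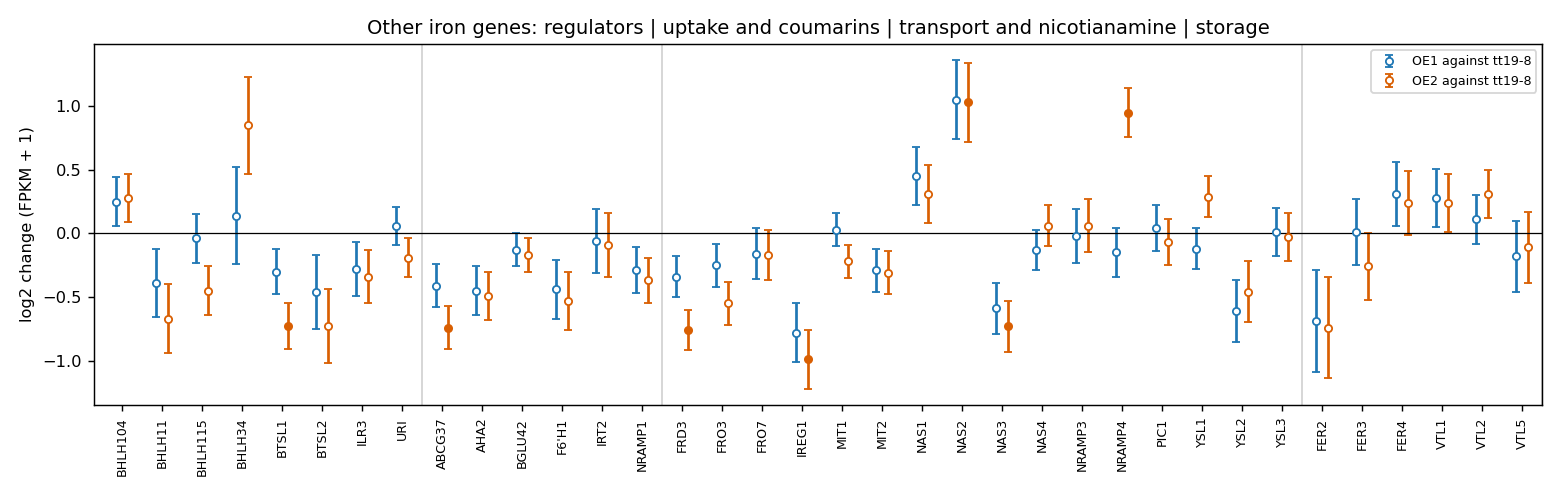
Log2 difference to tt19-8 (vertical axis, limma on log2(FPKM + 1), error bars SE) in OE1 and OE2 of the 36 tested genes of the 4 other iron lists, set apart by grey lines, filled where the adjusted p is under 0.05. The filled points, all of OE2, are NRAMP4 and NAS2 above 0 and IREG1, FRD3, ABCG37, BTSL1 and NAS3 below it.

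The peptide genes IMA1, IMA2 and IMA3, known to rise strongly under iron deficiency, were near 0 in OE1 and tt19-8 and listed above 0 in every OE2 library. IMA2 measured 0.874, 0.949 and 1.35 FPKM in OE2 and was listed at 0 in the other 6 libraries. IMA1 measured 0.467, 0.548 and 0.572 FPKM in OE2, with 0.0388 FPKM in OE1 replicate 3 and 0 elsewhere. IMA3 measured 0.133, 0.236 and 0.293 FPKM in OE2 and was listed at 0 elsewhere. OE2 values show no count steps at such low levels. Genes of any kind listed at 0 numbered 9687 to 9988 in OE2 libraries, against 11406 to 11697 in OE1 and 11082 to 11368 in tt19-8. The part of these traits of OE2 in the levels of the IMA genes was not tested.

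The whole seedlings held root and shoot RNA, and fewer cells of a type and less RNA per cell cannot be told apart in such samples. None of the 12 root markers was at 0 in any library, and the endodermis gene CASP1 measured 127 to 304 FPKM. The untested WER and TIP2;3 fell as low as 0.0356 and 0.0311 FPKM, a level of few fragments. Summed root marker levels were 1323 to 1815 FPKM in OE1, 1143 to 1532 FPKM in OE2 and 1111 to 2015 FPKM in tt19-8, with replicate 3 the highest of tt19-8. Most of each sum came from PYK10 (629 to 1093 FPKM across libraries), PRP3 (127 to 612 FPKM) and CASP1, so it says little of the other root markers. Of 10 tested root markers, 4 were lower in OE2, beside 14.5% of all genes: EXPA7 (-0.85, limma adjusted p = 0.0128), COBL9 (-0.75, adjusted p = 0.035), RSL4 (-0.79, adjusted p = 0.0385) and ADF8 (-1.11, adjusted p = 0.0211), and none was called in OE1. The uncalled OE1 values were -0.69 for EXPA7, -0.56 for COBL9, -0.61 for RSL4 and -1.1 for ADF8 (adjusted p from 0.175 to 0.209). All 4 act in root hairs, and the other root hair genes LRX1 (0.52), PRP3 (-0.08) and RHD6 (-0.19) did not pass in OE2. COBL9 and RSL4 were not called in OE2 after median-ratio scaling. Of 6 leaf markers only CAB2 passed in OE2, where it was higher (1.23, adjusted p = 0.00581). The others were at -0.69 for CA1, -0.38 for CAB1 and RCA, -0.33 for RBCS1A and 0.45 for LHCB2.1. Without tt19-8 replicate 3 these 5 called markers all passed in OE2, with adjusted p from 0.00503 to 0.0243. Summed leaf marker levels were 21670 to 31784 FPKM in OE1, 16713 to 23845 FPKM in OE2 and 24660 to 27835 FPKM in tt19-8. RBCS1A, at 9907 to 20050 FPKM, made up most of each. The part of root and shoot makeup in the levels of the members was not tested.

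Over the 9 libraries, the genes with the profile most like that of FER1 were LBD41 (Pearson r = 0.993 on log2(FPKM + 1)), ACD1 (r = 0.988) and AT1G19230 (r = 0.987). For OPT3, chosen for this after its values were seen, they were AT5G60980 (r = 0.996), AT1G73660 (r = 0.992) and FATB (r = 0.991). These are descriptions over libraries that include the tied OE1 and OE2 pairs. Like FER1, LBD41 was highest in tt19-8 replicates 1 and 2, at 9.29 and 12.4 FPKM, and measured 4.43 FPKM in replicate 3. IRT1 and BHLH39 were below the filter and have no such profile.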

How the data were processed

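The deposited values are FPKM per gene, 1 file per library, made by the authors. The submitters' processing notes name HISAT 0.1.6, edgeR and TAIR10 without a role. Strand handling, gene lengths and the treatment of shared reads are not given in the sources used here. Symbols, positions and sequences came from TAIR10.1, to which 32835 identifiers matched. Fragment totals were estimated from the steps in low values of 9610 single-exon genes.

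The 18232 genes that reached 1 FPKM in 3 or more libraries were tested with limma 3.58.1 in R 4.3.3, on log2(FPKM + 1), which understates the change of low genes. A single model with 3 group means covered the 9 libraries, eBayes used trend and robust, and Benjamini-Hochberg adjustment ran over all tested genes within a comparison, with a threshold of 0.05. The comparisons share libraries. The script was tested on simulated data, where it called 51% to 52% of changes of log2 1. Noise there was independent between libraries, unlike the tied OE1 and OE2 libraries. Alternatives were a pseudocount of 0.1 FPKM, no filter, median-ratio scaling, only the compared groups, a replicate block and leaving out each library.

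Replicate numbers pair OE1 with OE2 by the correlations of deviations given in the report, but not OE1 with tt19-8 (-0.06, 0.04 and 0.03) or OE2 with tt19-8 (-0.03, 0.03 and 0.01). All 10 members are named, and from each other list every called gene, up to 6 a comparison. ILR3, URI, AHA2, MYB72, CYP82C4, F6'H1, NRAMP1, MYB10, BHLH18 and BHLH19 were named after their values were seen. So were the IMA genes, BHLH101, IRT2, the other ferritins and the uncalled root and leaf markers. The members and lists were chosen with earlier results of these data known. Python 3.11.15 with pandas 2.3.3, numpy 2.4.6 and matplotlib 3.10.9 made tables and plots.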

Additional observations from a re-analysis of the deposited data

Results flagged for a closer look

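Between OE2 and OE1, 260 of 18232 tested genes (1.43%) were called, 254 higher and 6 lower in OE2. Among the genes of the lists, these include 2 outside the members, in which the difference to tt19-8 was thus itself different between the groups by limma, in the direction of most called genes. For NRAMP4 the log2 value was 1.1 higher (adjusted p = 0.0183), and for the leaf marker CAB2 it was 1.2 higher (adjusted p = 0.0132), in OE2 than in OE1 in 3 of 3 same-numbered pairs for each gene. Both calls were lost in 5 of 16 alternatives. OE1 and OE2 libraries of the same number are tied, so these are differences between linked libraries.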

How the results depend on the processing

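Among the 16 alternatives for OE2 against tt19-8, the call of OPT3 was lost in 6 and that of BTS in 11, and both stayed lower in all 16. The call of BTS was also lost with no filter (adjusted p = 0.061) and with only the compared groups (0.0691). For OE1 against tt19-8, genes called numbered 0 with a pseudocount of 0.1 FPKM, 0 with only the compared groups, 16 with the replicate block, 1823 with only OE1 and tt19-8 without tt19-8 library 3, and 2527 with median-ratio scaling without that library. In these last settings 2 and 2 members, 3 and 3 transport genes, 1 and 1 storage genes, 3 and 3 zinc and copper genes and, after scaling, 1 regulator were called.

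For OE2 against tt19-8, no filter gave 3282 genes, 1 member and 5 regulators, with the genes below 1 FPKM also tested. Median-ratio scaling gave 2167 genes (1371 higher and 796 lower), 0 members, 0 regulators, 0 uptake genes and 3 transport genes. Only the compared groups gave 2636 genes and 1 member. Scaling without tt19-8 library 3 gave 4776 genes, 4 members, 3 regulators and 1 storage gene. The replicate block gave 4872 genes, 2 members and 3 regulators.

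For OE2 against OE1, genes called numbered 146 with a pseudocount of 0.1 FPKM, 535 with no filter (3 regulators), 436 after scaling and 334 with the replicate block. OE1 and OE2 alone with the replicate block gave 12031 genes, 4 members, 8 regulators, 4 uptake, 13 transport, 4 storage and 9 zinc and copper genes. After scaling, the uncalled log2 differences turned to 0.06 for FIT, 0.04 for OPT3 and 0.06 for PYE. Leaving out 1 library at a time, FIT ranged from -0.23 to 0.13 and was above 0 without OE1 replicate 2 (0.13) or OE2 replicate 1 or 3 (0.04 each). PYE ranged from -0.07 to 0.01 and was at or above 0 without OE1 replicate 3 (0.01) or OE2 replicate 2 (0.00).

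Leaving out 1 library at a time gave 0 to 3128 genes for OE1 against tt19-8, 0 to 3 members, 0 to 2 uptake, 0 to 3 transport, 0 to 1 storage and 0 to 3 zinc and copper genes. For OE2 against tt19-8 it gave 530 to 5967 genes, 0 to 3 members, 0 to 3 regulators, 0 to 4 uptake, 0 to 7 transport, 0 to 1 storage and 1 to 5 zinc and copper genes. For OE2 against OE1 it gave 49 to 467 genes and 0 to 1 transport genes. The cause of these shifts was not tested. Depth limits IRT1, BHLH38, BHLH39 and BHLH100, and is unknown for OE2. FRO2, at 0.11 to 1.12 FPKM, lay above its level of 3 fragments (0.0183 to 0.0217 FPKM at the depths of OE1 and tt19-8). The filter at 1 FPKM left it untested.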

Other observations

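Copper and zinc genes, which share chelators and transporters with iron, held 12 tested genes of 18, of which 2 were higher and 2 lower in OE2 than in tt19-8 by limma, and none in OE1. Over all tested genes 4.5% were higher and 14.5% lower in OE2. COPT2, a high-affinity copper importer, averaged 31.7 ± 3.19 FPKM in OE2 and 31.8 ± 3.24 FPKM in OE1 against 18.3 ± 1.76 FPKM in tt19-8 (SD, n = 3). Its log2 difference was 0.76 ± 0.15 in OE2 (adjusted p = 0.0104) and 0.77 ± 0.15 in OE1 (adjusted p = 0.175). Before adjustment, the limma p was 0.00034 in OE2 and 0.000315 in OE1. CCS, the chaperone that gives copper to superoxide dismutases, averaged 14.1 ± 1.24 FPKM in OE2 against 29.8 ± 6.34 FPKM in tt19-8 (log2 -1.01 ± 0.17, adjusted p = 0.00724). SPL7, the regulator of the copper deficiency response, was lower in OE2 (-0.67 ± 0.2, adjusted p = 0.0445), and the zinc exporter HMA4 was higher (0.62 ± 0.15, adjusted p = 0.0237). After median-ratio scaling COPT2, CCS and HMA4 were still called and SPL7 was not (adjusted p = 0.142). Without tt19-8 replicate 3 all 4 passed in OE2, with adjusted p from 0.00143 to 0.0116, and 5 genes of the list were called in OE2 and 3 in OE1. Of all 18128 genes tested in that setting, 3128 were called in OE1 and 4548 were lower in OE2. The median log2 difference of the tested genes in OE2 was -0.35, beside -0.18 for all genes.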
